A study of Saccharomyces cerevisiae with 2 samples.

Results

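The nuclear genes for the respiratory chain and the ATP synthase of budding yeast were followed in RNA from a strain that lacks YDR374C and in RNA from wild-type cells. The set holds 40 genes of the 6256 genes on the array. They were chosen by name for their place in the complexes or in assembly, with earlier results of these data known. Complex II was not among them and is counted separately below. All 40 were found under the gene names in both scanner files. They comprise 3 NADH dehydrogenases, 9 subunits of complex III, 2 isoforms of cytochrome c, 9 subunits of complex IV, 2 assembly factors and 15 subunits or inhibitors of the ATP synthase.

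Both strains were Saccharomyces cerevisiae BY4741, a laboratory strain, grown in SD, a synthetic defined medium, and harvested in mid-exponential phase at an OD600 of 0.7. YDR374C encodes Pho92, an RNA-binding protein with a YTH domain. On each of 2 arrays, the RNA labelled as YDR374C deletion carried Cy5 and wild-type RNA carried Cy3. The dyes were not swapped, so a dye effect that belongs to a probe cannot be told apart from a strain difference. The labels do not say whether the arrays come from different cultures. The p-values therefore cover no more than the difference from array to array, and this could be purely technical.

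Respiring yeast passes electrons from NADH to ubiquinone through single-protein NADH dehydrogenases, since it lacks the multi-subunit complex I of most eukaryotes. Complex III hands the electrons to cytochrome c and complex IV passes them to oxygen. Both pump protons across the inner mitochondrial membrane, and the ATP synthase uses the gradient to make ATP. In glucose medium much of this machinery is held at a low level by glucose repression, and the Hap complex, a CCAAT-binding activator, drives many of its genes when repression is lifted.

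All values below are log2 ratios, deletion-labelled RNA over wild type, given as the mean of 2 arrays with the standard error of limma's fit across all genes (SE, n = 2). A positive value means higher in the deletion-labelled RNA. A gene was called at a Benjamini-Hochberg adjusted p under 0.05 over 5641 tested genes. Intensities are background-corrected, loess-normalised spot signals in arbitrary units. They were not scaled between arrays, so they are compared within an array. Intensities of different probes are not compared as amounts of RNA. Low readings are set beside genes absent from BY4741 and negative-control spots only as a rough guide to background. The samples are bulk cultures, in which fewer expressing cells and less RNA per cell cannot be told apart.

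The median gene spot read 2105 (deletion-labelled) and 1597 (wild type) on array 1, and 3105 and 2371 on array 2, against local background medians between 36 and 42. Negative-control spots read higher than the local background. Their medians before correction were 126 (deletion-labelled) and 140 (wild type) on array 1, and 174 and 183 on array 2. The probe of the deleted gene did not separate the RNAs clearly. YDR374C had intensities of 215 in deletion-labelled RNA and 254 in wild-type RNA on array 1, and 245 and 285 on array 2, with a log2 ratio of -0.23 ± 0.03 (limma adjusted p = 2.74e-05). These readings are dim, and they average 2 unlike spots. Spot 1 was not well above background in either dye on either array. Spot 2 was well above background in both dyes on both arrays, also in deletion-labelled RNA. Its raw signals were 508 (deletion-labelled) and 475 (wild type) on array 1, and 748 and 623 on array 2. Its normalised log2 ratios were -0.24 and -0.04. The YDR374C call was lost with the scanner software's log ratio (-0.31, limma adjusted p = 0.0879) and when the authors' table was used (-0.16, limma adjusted p = 0.0813). For comparison, the probe for URA3, which is deleted in BY4741, gave 314 in deletion-labelled RNA against 261 in wild-type RNA on array 1, with 541 against 412 on array 2, and was itself called higher, by 0.33 ± 0.04. LEU2 and MET17, also absent from BY4741, read lower than YDR374C and were not tested. LEU2 gave 137 (deletion-labelled) against 145 (wild type) on array 1, with 199 against 200 on array 2. For MET17 the readings were 115 against 99.8 on array 1, and 105 against 109 on array 2. Where the YDR374C probe lies within the gene is not used here. Every direction given here therefore rests on the dye labels.

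Respiratory chain and ATP synthase genes were mostly higher in the deletion-labelled RNA, by modest amounts. Of the 40 members 38 were tested, of which 22 were higher, 6 were lower and 10 did not pass. Higher calls thus made up 57.9% of the tested members, beside 36.4% of all tested genes, and lower calls 15.8%, beside 36.7%. The median log2 ratio of the tested members was 0.16, with 0.14 on array 1 and 0.20 on array 2, against a median of -0.0019 over all tested genes. Their ratios lay between -0.50 for CYC1 and 0.74 for STF1. A log2 ratio of at least 0.5 with the same adjusted p was reached by 8 members (21.1%, against 4.13% of all tested genes) and one of -0.5 or below by none (3.88% of all tested genes). By the scanner software's own p under 0.01 on both arrays, 4 members were higher (NDI1, QCR9, COX5B and STF1; 2.55% of all tested genes) and none lower (2.52%). At the upper end, STF1 ranked 39th, QCR9 61st, NDI1 85th and COX5B 90th among the 5641 genes from the highest ratio down.

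**Figure D1:**
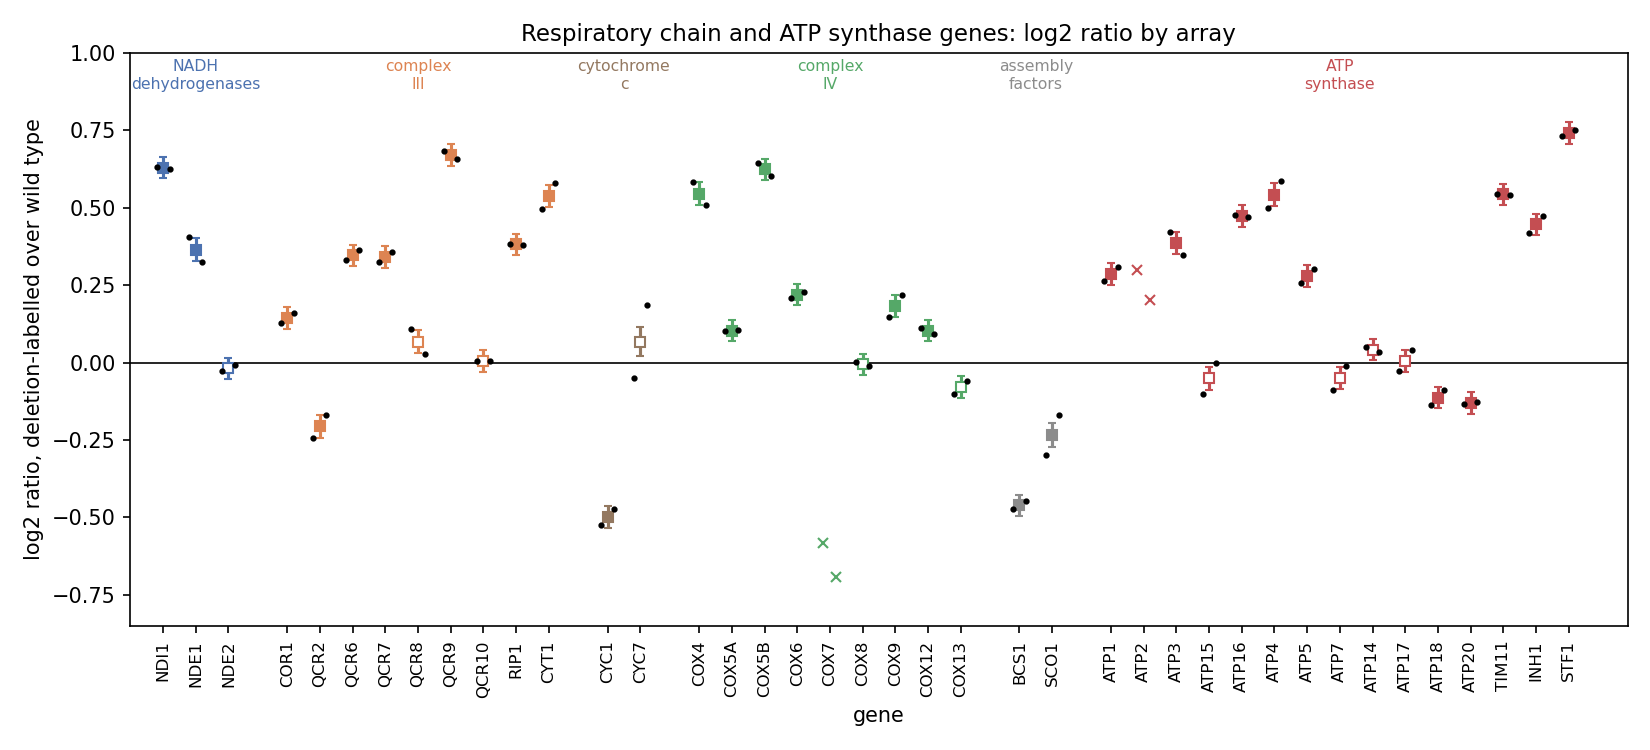
Log2 ratio of deletion-labelled over wild-type RNA (vertical axis) for each of the 40 genes, grouped by complex. Squares are means with SE (n = 2), filled where the gene was called and open where it did not pass, black dots are the arrays (array 1 left, array 2 right), and crosses mark COX7 and ATP2, each with a spot marked as an outlier on 1 array. STF1 stands highest at 0.74, and CYC1 lowest among the tested genes at -0.50.

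The arrays agreed closely for these genes. The median absolute difference between arrays was 0.04 on the log2 scale and the largest was 0.23, for CYC7. Between the spots of one probe on one array, over 42 pairs, the median absolute difference was 0.06 and the largest 0.17, for NDE2. Such pairs exist only for the 24 members with 2 spots. The other 16 members, STF1 and CYC1 among them, had 1 spot per array. No spot of a member was saturated, and each of the 38 tested members cleared background for both dyes on each array, NDE2 with 1 of its spots below it in red on array 2.

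The NADH dehydrogenases did not move as one. NDI1, the enzyme that faces the mitochondrial matrix and takes electrons from NADH made there, read 976 in deletion-labelled RNA and 629.8 in wild-type RNA on array 1, and 1502 and 973 on array 2. Its deletion-labelled signal was above the wild-type signal on both arrays, and it rose by 0.63 ± 0.03, a 1.55-fold difference (limma adjusted p = 1.13e-09). NDE1, the main external enzyme, which oxidises cytosolic NADH, read 11958 (deletion-labelled) against 9034 (wild type) on array 1, with 17785 against 14188 on array 2. It rose by 0.37 ± 0.04 (limma adjusted p = 3.63e-07), and by 0.58 when arrays were median-centred in place of loess. NDE2, the second external enzyme, had a dim probe, with raw spot signals between 244 and 438 beside negative-control medians between 126 and 183. NDE2 read 204 (deletion-labelled) against 208 (wild type) on array 1, with 283 against 285 on array 2. It had -0.02 ± 0.03 and did not pass (limma adjusted p = 0.65), but it was called lower, at -0.09, after median centring, at -0.11 with the scanner software's log ratio and at -0.13 with the authors' series table. The NDE1 ratio exceeded that of NDE2, a ratio taken from a dim probe, by 0.43 on array 1 and by 0.33 on array 2. The ratio of NDI1 exceeded that of NDE1 by 0.23 and 0.30 with loess, but after median centring both stood at 0.58, so the order of these genes depends on the scaling. Differences between the ratios of single genes, here and below, are given as values and were not tested.

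In complex III, the cytochrome bc1 complex, 6 of 9 subunit genes rose, 1 fell and 2 did not pass, with a median log2 ratio of 0.34 (0.32 on array 1 and 0.36 on array 2). The higher share was 66.7%, beside 36.4% of all tested genes, and the lower share 11.1%, beside 36.7%. The catalytic subunits outside the mitochondrial genome were among the higher ones. CYT1, cytochrome c1, read 1437 in deletion-labelled RNA and 1018 in wild-type RNA on array 1, and 2699.7 and 1805 on array 2. Its ratio was 0.54 ± 0.04, a 1.45-fold rise (limma adjusted p = 6.91e-09). RIP1, the Rieske iron-sulphur protein, read 3521 (deletion-labelled) against 2703 (wild type) on array 1, with 4032 against 3095 on array 2, and rose by 0.38 ± 0.03. Both genes were higher on each array, and the ratios of RIP1 were equal to 2 decimals, at 0.38.

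The largest difference in complex III belonged to a small subunit. QCR9 read 1626 in deletion-labelled RNA and 1012 in wild-type RNA on array 1, and 1674 and 1061 on array 2, which gave 0.67 ± 0.03, a 1.59-fold rise (limma adjusted p = 7.11e-10). QCR6, an acidic small subunit, read 20885 (deletion-labelled) against 16611 (wild type) on array 1, with 22791 against 17725 on array 2, for a rise of 0.35 ± 0.03 that became 0.61 after median centring. QCR7, another small subunit, rose by 0.34 ± 0.03. The remaining small subunits, QCR8 (0.07 ± 0.04) and QCR10 (0.01 ± 0.03), did not pass.

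The core proteins of complex III, which carry no redox centre, differed in sign. COR1 read 1232 in deletion-labelled RNA and 1128 in wild-type RNA on array 1, and 2001 and 1791 on array 2, and rose by 0.14 ± 0.03 (limma adjusted p = 0.00172). QCR2 read 4348 (deletion-labelled) against 5151 (wild type) on array 1, with 6105 against 6858 on array 2, and fell, with a ratio of -0.21 ± 0.04 (limma adjusted p = 0.000114), or -0.11 after median centring. Each was on its own side of 0 on both arrays.

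Cytochrome c, the mobile carrier between complexes III and IV, included the lowest ratio of the tested members with loess. CYC1, the main isoform of aerobic cells, read 5744 in deletion-labelled RNA and 8263 in wild-type RNA on array 1, and 8805 and 12208 on array 2. It fell, with a ratio of -0.50 ± 0.04 (limma adjusted p = 1.13e-08), or -0.34 after median centring, where BCS1, at -0.43, was lower. CYC7, the isoform associated with low oxygen and stress, read 413 (deletion-labelled) against 427 (wild type) on array 1, with 521 against 458 on array 2. Its array ratios were -0.05 and 0.18, on either side of 0, and it did not pass (0.07 ± 0.05, limma adjusted p = 0.2). CYC7 exceeded CYC1 in ratio by 0.48 on array 1 and 0.66 on array 2.

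In complex IV, cytochrome c oxidase, 6 of 8 tested subunit genes rose and none was called lower, with a median of 0.14 (0.13 on array 1 and 0.16 on array 2). The higher share was 75%, beside 36.4% of all tested genes, and the lower share 0%, beside 36.7%. At an unadjusted limma p under 0.05, 1 subunit gene was lower, COX13. COX4, a subunit needed for assembly of the complex, read 3721 in deletion-labelled RNA and 2484 in wild-type RNA on array 1, and 6632 and 4661 on array 2. It rose by 0.55 ± 0.04, 1.46-fold (limma adjusted p = 5.48e-09). COX6 (0.22 ± 0.03), COX9 (0.18 ± 0.04) and COX12 (0.10 ± 0.03), all small nuclear-encoded subunits, rose less. COX12 lost its call with the series table (0.09, limma adjusted p = 0.0547) and had 0.18 after median centring. COX8 (-0.0050 ± 0.03) and COX13 (-0.08 ± 0.03, limma adjusted p = 0.0538) did not pass, and COX13 was called lower at the same ratio when saturated spots were left out across the array (adjusted p = 0.0462).

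Subunit 5 of complex IV exists as a pair of interchangeable isoforms, COX5A in aerobic cells and COX5B, which is otherwise induced when oxygen or haem is scarce. COX5B read 2278 in deletion-labelled RNA and 1459 in wild-type RNA on array 1, and 3178 and 2090.2 on array 2. It rose by 0.62 ± 0.03, a 1.54-fold difference (limma adjusted p = 1.28e-09). COX5A read 1289 (deletion-labelled) against 1202 (wild type) on array 1, with 2517 against 2341 on array 2, with 0.10 ± 0.03 (limma adjusted p = 0.0145), a call that was lost after median centring (0.07, adjusted p = 0.103). The ratio of COX5B exceeded that of COX5A by 0.54 on array 1 and 0.50 on array 2.

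COX7 was not tested, because its only spot was marked as an outlier in both channels on array 1. On array 2 it read 5519 in deletion-labelled RNA and 8927 in wild-type RNA, a log2 ratio of -0.69. With outlier spots kept its ratios were -0.58 and -0.69, lower on both arrays, with a mean of -0.64 ± 0.04 (limma adjusted p = 6.62e-09). That would place this small subunit below CYC1, and it took the complex IV median to 0.10.

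**Figure D2:**
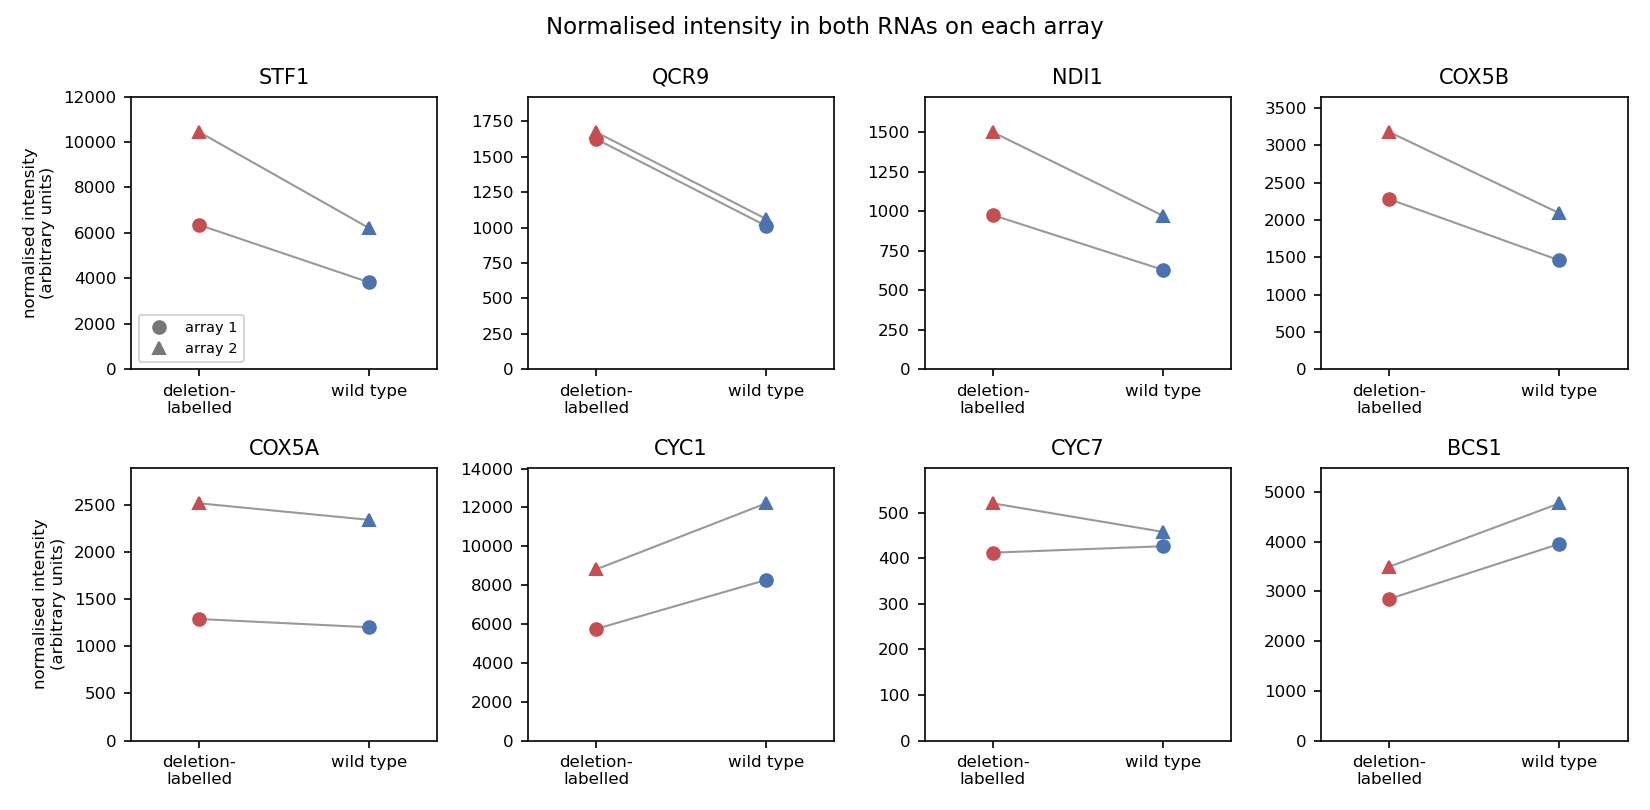
Normalised intensity (vertical axis, arbitrary units, starting at 0, a separate scale for each gene) in deletion-labelled RNA (left, red) and wild-type RNA (right, blue) on array 1 (circles) and array 2 (triangles), with a line joining the readings of one array. STF1, QCR9, NDI1 and COX5B are higher in deletion-labelled RNA on both arrays, CYC1 and BCS1 lower on both, and CYC7 differs in sign between arrays.

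Both listed assembly factors fell. BCS1, the AAA ATPase that inserts the Rieske protein into complex III, read 2850.0 in deletion-labelled RNA and 3959 in wild-type RNA on array 1, and 3499 and 4774 on array 2, for -0.46 ± 0.03 (limma adjusted p = 2.1e-08). Its client RIP1 had the opposite sign. SCO1, a copper chaperone of complex IV, read 1391 (deletion-labelled) against 1710.3 (wild type) on array 1, with 1937 against 2179.9 on array 2, for -0.23 ± 0.04 (limma adjusted p = 6.46e-05).

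BCS1 lies near the deleted gene. In the RefSeq R64 gene table the order on chromosome IV is PHO92 (YDR374C), WIP1, BCS1, ARH1 and ATP17. No probe for WIP1 was found on the array. ARH1 had -0.11 ± 0.03 (limma adjusted p = 0.00895), and ATP17, the farthest of these, had 0.01 ± 0.04 and did not pass. The part of the neighbouring deletion in the BCS1 value was not tested.

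Of 14 tested ATP synthase genes 8 rose, 2 fell and 4 did not pass, with a median of 0.28 (0.26 on array 1 and 0.31 on array 2). The higher share was 57.1%, beside 36.4% of all tested genes, and the lower share 14.3%, beside 36.7%. In the catalytic F1 head and its central stalk, ATP16 (the delta subunit) read 6483 in deletion-labelled RNA and 4662 in wild-type RNA on array 1, and 8889.8 and 6409.6 on array 2. It rose by 0.47 ± 0.03, 1.39-fold (limma adjusted p = 1.5e-08). ATP3, the gamma subunit that turns inside the head, read 7020.2 (deletion-labelled) against 5237 (wild type) on array 1, with 13589 against 10676 on array 2, and rose by 0.39 ± 0.04. ATP1, the alpha subunit, rose by 0.29 ± 0.03, and by 0.45 after median centring. ATP15, the epsilon subunit, had -0.05 ± 0.04 and did not pass. ATP2, the catalytic beta subunit, was not tested, since its single spot was marked as an outlier on array 2. On array 1 it had 0.30, and with outlier spots kept it had 0.25 ± 0.04 (limma adjusted p = 3.35e-05).

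The peripheral stalk, which holds the head still, was uneven. ATP4 (subunit b) read 3714 in deletion-labelled RNA and 2629 in wild-type RNA on array 1, and 3397 and 2261 on array 2, and rose by 0.54 ± 0.04, 1.46-fold (limma adjusted p = 6.81e-09). ATP5, the subunit that joins stalk and head, rose by 0.28 ± 0.04. ATP14 (subunit h) had 0.04 ± 0.03 and did not pass. ATP7 (subunit d) read 15970.3 (deletion-labelled) against 16989 (wild type) on array 1, with 16657 against 16791 on array 2. Its ratio was -0.05 ± 0.04 and did not pass, but after median centring it was called higher, at 0.20.

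Among the small proteins of the membrane part, TIM11 stood apart. TIM11, subunit e, which helps ATP synthases pair into dimers, read 3535 in deletion-labelled RNA and 2423 in wild-type RNA on array 1, and 5252 and 3605 on array 2. It rose by 0.54 ± 0.03, 1.46-fold (limma adjusted p = 3.93e-09). ATP20, subunit g, its partner in dimer formation, read 2794 (deletion-labelled) against 3064 (wild type) on array 1, with 3668 against 4006 on array 2, and fell, with -0.13 ± 0.03 (limma adjusted p = 0.00341). ATP18 had -0.11 ± 0.04 (limma adjusted p = 0.0093) with loess, but 0.07 without a call after median centring, so its direction depends on the scaling. ATP17 (subunit f) did not pass with loess and was called higher, at 0.23, after median centring.

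The inhibitor proteins, which block the reverse reaction in which the enzyme hydrolyses ATP, both rose. STF1 read 6349.7 in deletion-labelled RNA and 3820.2 in wild-type RNA on array 1, and 10437 and 6204 on array 2. It rose by 0.74 ± 0.03, 1.67-fold (limma adjusted p = 2.82e-10), from 1 spot per array. STF1 was also the only member called in a test against a 1.5-fold change (limma's treat, by which 0.709% of all tested genes were called higher and 0.745% lower), and none was lower. At an unadjusted p under 0.05 in that test 2 members were higher and 0 lower. INH1, its relative, read 4717 (deletion-labelled) against 3526 (wild type) on array 1, with 7272 against 5240.1 on array 2, and rose by 0.45 ± 0.04, 1.36-fold (limma adjusted p = 3.45e-08). The STF1 ratio exceeded that of INH1 by 0.31 on array 1 and 0.28 on array 2.

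Set side by side, the medians were 0.37 for the NADH dehydrogenases, 0.34 for complex III, 0.14 for complex IV and 0.28 for the ATP synthase. Each group held members near 0 as well as members above 0.5, and the ranges overlapped. The lowest and highest ratios were -0.02 and 0.63 in the NADH dehydrogenases, -0.21 and 0.67 in complex III, -0.08 and 0.62 in complex IV, and -0.13 and 0.74 in the ATP synthase. The differences between these medians were not tested.

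Other genes of oxidative phosphorylation were counted in lists chosen by function, and their balance of calls varied from list to list. Each count can be read beside the 36.4% higher and 36.7% lower of all tested genes, and differences between lists were not tested. Complex II, succinate dehydrogenase, had 1 higher and 2 lower of 4 genes. SDH3, a membrane anchor, rose by 0.21 ± 0.04, while SDH4, the other anchor, had -0.26 ± 0.03 and SDH2, the iron-sulphur subunit, had -0.10 ± 0.04. The SDH2 call did not hold on the scanner software's log ratio (-0.07, limma adjusted p = 0.13) or on the authors' table (-0.07, limma adjusted p = 0.166).

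Of 7 regulators, 5 were higher (71.4%) and 2 lower (28.6%), with a median of 0.16, equal to that of the members to 2 decimals. HAP4, the activating and glucose-regulated subunit of the Hap complex, read 3428 in deletion-labelled RNA and 2377 in wild-type RNA on array 1, and 4481 and 3083 on array 2. It rose by 0.53 ± 0.03, 1.45-fold (limma adjusted p = 4.65e-09). Of the DNA-binding subunits, HAP5 (0.31 ± 0.04) and HAP2 (0.16 ± 0.03) rose while HAP3 fell, at -0.22 ± 0.03. ROX1, a repressor of hypoxic genes, the class to which COX5B and CYC7 belong, rose by 0.32 ± 0.04.

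Assembly genes of complex III and cytochrome c were mostly lower. Of 11 tested genes for complex III and cytochrome c assembly 9 were lower, 1 was higher and 1 did not pass (median -0.17). The lower share was 81.8%, beside 36.7% of all tested genes. Some of these calls depended on the processing. After median centring MZM1 (-0.05, limma adjusted p = 0.222) and CBS1, the higher gene (0.07, limma adjusted p = 0.093), lost their calls. CBP3, which had not passed, was then called lower (-0.12, limma adjusted p = 0.00811). CBP1 lost its call with the series table (-0.10, limma adjusted p = 0.0514). CBT1, which acts on the mitochondrial cytochrome b RNA, had -0.62 ± 0.03 (limma adjusted p = 1.28e-09). CYC3, the lyase that attaches haem to cytochrome c, read 9218 in deletion-labelled RNA and 13026 in wild-type RNA on array 1, and 12594 and 16949 on array 2, and had -0.46 ± 0.04, beside the -0.50 of CYC1. The complex III assembly factor CBP4 had -0.29 ± 0.03 and the splicing factor CBP2 had -0.23 ± 0.04.

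Assembly and translation genes of complex IV were 6 higher (26.1%) and 9 lower (39.1%) of 23 tested (median -0.02). PET111 (-0.45 ± 0.04) and PET54 (-0.44 ± 0.04), translational activators of mitochondrial oxidase RNAs, were lower, and COX19 (0.40 ± 0.04), which serves copper delivery, was higher. PET122, a further activator, had -0.28 ± 0.05, but its red signal was saturated on spots of both arrays, and after median centring it had -0.0069 (limma adjusted p = 0.936). For the ATP synthase, 4 were higher (33.3%) and 5 lower (41.7%) of 12 tested (median -0.03). STF2, a stabilising factor, rose by 0.69 ± 0.03 and ATP23, a protease and chaperone, by 0.56 ± 0.04, while ATP25 (-0.34 ± 0.04) and the F1 assembly factor ATP11 (-0.28 ± 0.04) were lower. ATP12, the other F1 assembly factor, named here after its values were seen, was not tested because of outlier marks on array 2. It had -0.83 on array 1, and with outlier spots kept its mean was -0.84 (limma adjusted p = 4.65e-10), the ratio farthest from 0 in that list at that setting.

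**Figure D3:**
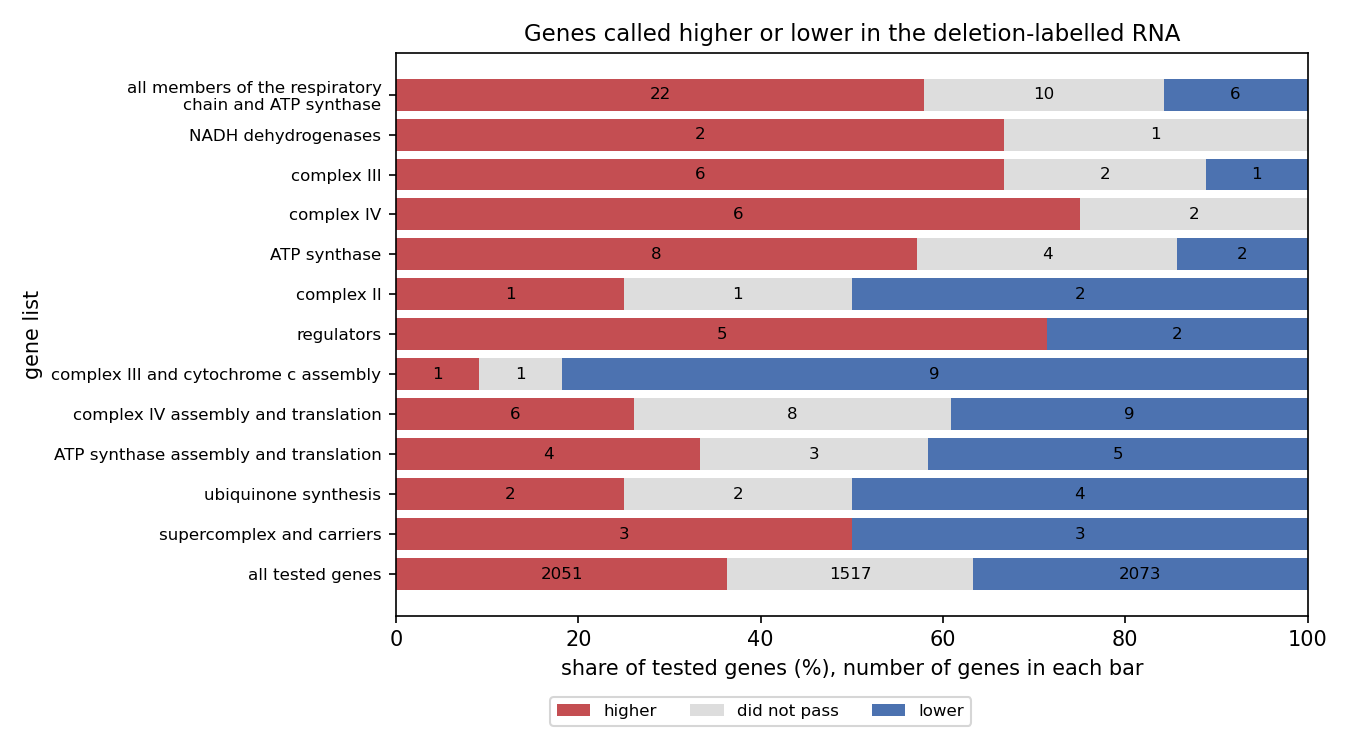
Share of tested genes (horizontal axis, percent) called higher (red, left), not passing (grey) or called lower (blue, right) in deletion-labelled RNA, with the number of genes printed in each bar, for the members, their complexes, the other lists and all tested genes. The members hold 22 higher and 6 lower calls, and the list for complex III and cytochrome c assembly 1 higher and 9 lower.

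Ubiquinone synthesis had 2 higher and 4 lower of 8 tested genes (median -0.10). The methyltransferase COQ5 rose by 0.50 ± 0.04, while the hydroxylase CAT5 (-0.47 ± 0.03), the tail synthase COQ1 (-0.39 ± 0.03) and COQ10 (-0.30 ± 0.04) were lower. Of 6 tested supercomplex factors and carriers 3 were higher and 3 lower, but the higher count was 1 with the scanner software's log ratio and 5 with outlier spots kept. PIC2, a carrier of phosphate and copper, read 3723 in deletion-labelled RNA and 2383 in wild-type RNA on array 1, and 4910.2 and 2893 on array 2, and rose by 0.70 ± 0.04. The main phosphate carrier MIR1 (-0.34 ± 0.04), the ADP/ATP carrier AAC1 (-0.34 ± 0.04) and the supercomplex factor RCF2 (-0.26 ± 0.04) were lower. PET9, the main ADP/ATP carrier, named here after its values were seen, was called higher (0.33 ± 0.10), but its arrays read 0.70 and -0.03, and the red signal of array 2 was saturated. Its call was lost with the scanner software's log ratio (limma adjusted p = 0.235) and with the series table (limma adjusted p = 0.105). AAC3, another ADP/ATP carrier named after its values were seen, was called higher at 0.09 ± 0.04 and lost the call with the scanner software's log ratio (limma adjusted p = 0.0713) and after median centring (limma adjusted p = 0.0751).

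**Figure D4:**
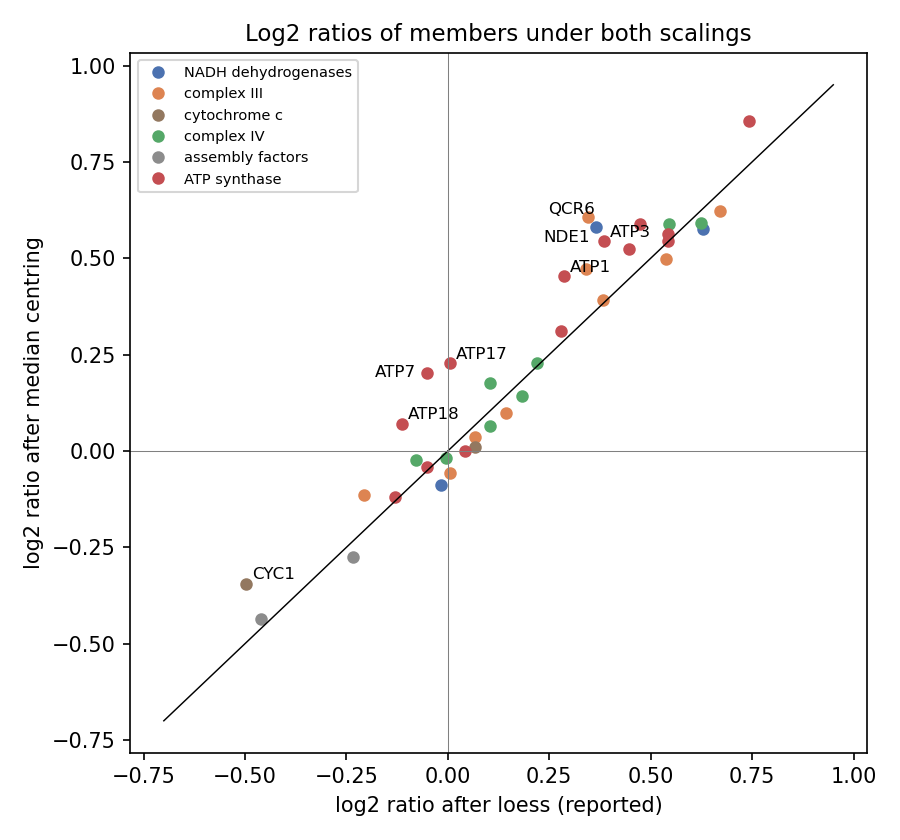
Log2 ratio of each tested member after median centring (vertical axis) against the ratio after loess (horizontal axis), coloured by complex, with the line of equality. Genes that moved by over 0.15 are named, among them QCR6 (0.35 to 0.61), ATP7 (-0.05 to 0.20) and ATP18 (-0.11 to 0.07), and all of these moved upward.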

How the data were processed

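RNA was compared on 2 Agilent 2-colour arrays of 10789 spots, 526 of them controls, on 1 slide; 0.2 ug of total RNA was labelled per the labels' protocols. The deposited scanner files hold spot intensity per channel, a log10 ratio of red over green and its p-value, plus quality flags. The software was Agilent Feature Extraction, 9.5.3.1 per the file headers and 9.3.2.1 per the submitters' processing notes. The authors' deposited log2 ratios in the series table ran red over green (correlations with the scanner ratios across probes 0.994 and 0.990). No source used here states their normalisation or averaging. The median log2 ratios of that table were -0.00491 and -0.000163.

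In R 4.3.3 with limma 3.58.1, normexp (offset 50) corrected the mean signals for background, and loess within each array gave control spots a weight of 0. Outlier-marked spots were left out (6.47% and 8.92% of gene spots), the spots of a probe averaged, and a gene was tested where each array had it well above background in 1 dye or both. The 38 tested members were those with an unmarked spot on both arrays. The log2 ratio was tested against 0 with lmFit and eBayes, with Benjamini-Hochberg adjustment; the test was tried on simulated data. Coordinates are not given, since the files name no genome build. Lists were described by counts and medians, with no set test. Members, lists and tests were chosen with earlier results of these data known. All 40 members are named, and up to 4 genes of each other list with the largest called ratio of 1 sign. Further genes are named where a call changed with the processing, where a test was missing, or to complete a group of subunits.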

Additional observations from a re-analysis of the deposited data

How the results depend on the processing

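Across 8 other settings of background correction, normalisation, source of values, outlier or saturated spots and dim-probe filter, 31 of the 38 tested members kept their call and 7 (NDE2, COX5A, COX12, COX13, ATP7, ATP17 and ATP18) did not in at least 1. Median centring changed NDE2, COX5A, ATP7, ATP17 and ATP18. Leaving out saturated spots could not change a member's ratio, since no member spot was saturated. Requiring both dyes above background, or dropping the dim-probe filter, could not either, since all 38 cleared background. In those settings a call could move only through the fit across all genes. Over the 8 settings 21 to 23 members were higher and 6 or 7 lower. Median centring in place of loess reversed ATP7 (0.20) and ATP18 (0.071), and moved the median of all members to 0.21, of the NADH dehydrogenases to 0.58, of complex III to 0.39 and of the ATP synthase to 0.38; the cause was not tested. With outlier spots kept, the complex IV median was 0.10. Stricter rules left fewer calls, by construction for the log2 limit and for treat, which tighten the same test. With an absolute log2 ratio of at least 0.5, 8 were higher and 0 lower. With limma's treat against 1.5-fold, 1 was higher and 0 lower (2 and 0 at an unadjusted p under 0.05). The scanner software's p under 0.01 on both arrays is a separate test that does not require the limma call. By it 4 were higher (10.5%, against 2.55% of all tested genes) and 0 lower. Without either array in turn, where no residual degrees of freedom remain and no test can be made, the median of all members was 0.14 to 0.20, and PET9 reversed without array 1 (-0.031, against 0.70 without array 2). Only 1 slide was used, so no slide block was fitted. Each array holds both strains, so the ratio within an array pairs them, and each array forms 1 replicate of the ratio. The number of arrays and the unswapped dyes limit the precision.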
